A study of Mus musculus with 6 samples.

Results

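The genes that encode the proteins of the cytosolic ribosome were followed in microglia of adult mice with and without Mir137. Members were the gene rows named Rpl or Rps with a number, the kinases named Rps6k left out, together with Rplp0, Rplp1, Rplp2 and Rpsa. They made up 83 of the 17459 genes in the count table, 50 of the large and 33 of the small subunit. Of these, 77 encode core ribosomal proteins and 6 are paralogs of a core protein (Rpl3l, Rpl7l1, Rpl22l1, Rpl39l, Rps27l and Rps4l). The filter on low counts kept 82 of the 83 members. It set aside Rpl3l, the muscle paralog of Rpl3, which had 1, 0 and 0 counts in the cWT libraries and 4, 4 and 1 in the cKO libraries.

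RNA sequencing was done on 3 libraries of each genotype from male C57BL/6J mice aged 8 weeks. The cKO group was Mir137loxP/loxP;Tmem119-CreERT2 and the cWT group Mir137+/+;Tmem119-CreERT2, so both carried a tamoxifen-activated Cre driven by the microglial gene Tmem119, and only cKO carried loxP sites at Mir137. Mice were injected with tamoxifen for 7 days when they were 7 to 8 weeks old. The design text names 4 mice and does not say how they fall into the libraries, so the p-values cover the spread between these libraries only, whose source may be technical. The level of Mir137 was not analysed here, and its loss in cKO was therefore taken from the labels.

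A ribosome is built from a small subunit, which reads the messenger RNA, and a large subunit, which forms peptide bonds, and most of their proteins are needed once per particle. Ribosomal protein messages are short, abundant in nearly every cell and usually start with a C followed by pyrimidines, the 5′ terminal oligopyrimidine (TOP) tract, through which the mTOR pathway controls their translation. Many of these genes also carry small nucleolar RNAs, which guide the modification of ribosomal RNA, in their introns.

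TOP tracts of members are shown because they are the sequence feature by which this family is best known. RefSeq (GRCm38.p6) gave start windows of 300 bases for 61 of the 83 members. A start with C followed by at least 4 pyrimidines was found in 13 of 61 members (21.3%) and in 297 of 10205 other tested genes (2.91%). A run of at least 8 pyrimidines within 50 bases to either side of the start was found in 51 members (83.6%) and in 37.3% of the other genes. This count and the one at the start use different minimum lengths. Examples follow from 6 of the 13 members with a tract at the annotated start, and these need not be the 6 longest tracts. Each is given with 10 bases before the start and 20 from it, 5′ to 3′ on the coding strand, with the tract in capitals. They lie at chr14:18270967-18270996 (minus strand), chr2:39005112-39005141 (minus), chr17:27635225-27635254 (minus), chr17:33955646-33955675 (minus), chr4:86857348-86857377 (minus) and chr7:4792955-4792984 (plus), in that order.
Rpl15: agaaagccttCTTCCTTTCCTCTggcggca
Rpl35: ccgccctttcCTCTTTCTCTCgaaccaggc
Rps10: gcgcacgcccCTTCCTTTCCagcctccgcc
Rps18: cacttccgctCTCTCTTCCacaggaggcct
Rps6: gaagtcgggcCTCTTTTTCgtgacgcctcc
Rpl28: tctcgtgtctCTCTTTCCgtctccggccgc

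The microRNA that was deleted is shown with its seed, bases 2 to 8, in capitals. Its gene lies at chr3:118433857-118433929, and the mature strand covers chr3:118433901-118433923 (plus strand). The letters complementary to the seed, AGCAATA, were searched in annotated transcripts and, on both strands, in the start windows.
miR-137-3p: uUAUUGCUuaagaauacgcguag
The 3′ UTR held AGCAATA in 2 of 81 members with a coding transcript, Rpl28 and Rps13, and in 9.49% of 12556 other tested genes. These UTRs are short, with a median of 88 bases in members and 1018 bases over tested genes. No member held the letters in its coding sequence, where 6.72% of the other genes did. In the start windows 1 of 61 members, Rpl22, and 1.44% of the other genes had them. A match is a description of letters and not a site of action.

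All 82 tested members rose in cKO. Each passed edgeR's quasi-likelihood test at a Benjamini-Hochberg adjusted p under 0.05 over 13490 genes, with adjusted p from 2.99e-12 to 0.00675. Among all tested genes 35.6% were called higher and 36.5% lower. In each of the 82 members every cKO library lay above every cWT library in CPM (read abundance scaled to library size, here with TMM factors between libraries), as did 36.7% of all tested genes. The median log2 fold change was 2.16 over the members, with the middle of the list from 1.90 to 2.35, beside -0.02 over all genes. In 54 members the log2 fold change exceeded 2, in 27 it lay between 1 and 2, and in 1, Rpl7l1, it was below 1. The authors' deposited table lists 82 members as higher, with a median log2 fold change of 2.17.

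The members took 3.16%, 2.71% and 2.62% of all counts in the cWT libraries and 10.01%, 9.16% and 8.15% in the cKO libraries. The means were 2.83% ± 0.289 (SD, n = 3) and 9.11% ± 0.933 (SD, n = 3), a ratio of 3.22. The groups lay far apart, and the 95% Wilson interval of any single share was at most 0.0169 percentage points to each side, for counting error only. The cWT libraries held 16503817 to 17482042 counts in total, the cKO libraries 12068698 to 15212806. In 64 of the 82 members cKO replicate 3 was the lowest of the cKO libraries, and in 74 cKO replicate 1 was the highest. In bulk libraries more ribosomal protein RNA per cell and more cells rich in it cannot be told apart.

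**Figure D1:**
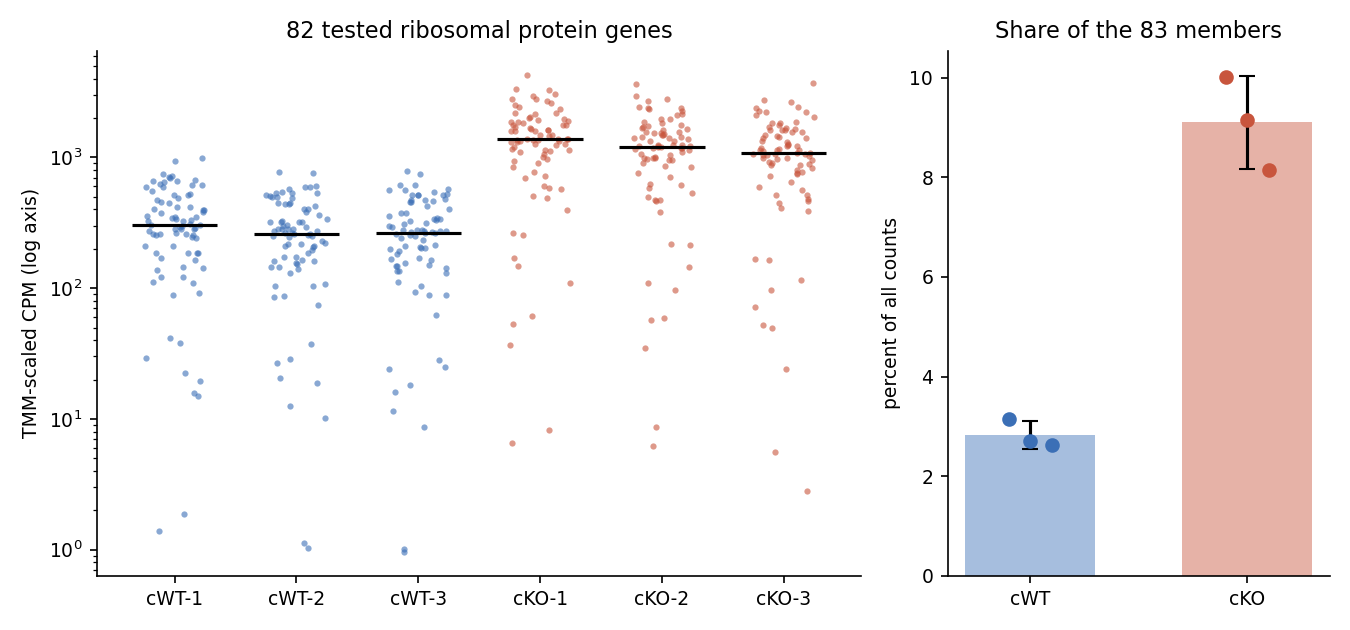
Left, TMM-scaled CPM (log axis) of the 82 tested ribosomal protein genes in each library, 1 point per gene, with the median as a black line; right, percent of all counts taken by the 83 members, with points for libraries, bars for means and error bars for SD (n = 3). The cloud of points lies higher in all 3 cKO libraries, and the share is 2.83% in cWT and 9.11% in cKO.

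Scaling sets the size of this difference. With library size alone in place of TMM, the median of all genes moved from -0.02 to -0.42 and the share of called genes that were higher from 49.4% to 33.1%. The median of the members was then 1.76, with all 82 called higher and the lowest at 0.46, where 10073 genes were called over the table. Transcript length moved with the fold as well. When each library was given offsets for length and GC content of the transcripts, 71 of 82 members were higher and 1 lower, with a median of 0.63, where 28.8% of 12983 genes were higher and 28.2% lower and the median was -0.01. The offsets were also fitted with the shortest annotated transcript whose coding length equalled that of the gene's principal transcript, or the principal one itself where none qualified. This choice was made after the data were seen. With this shortest transcript in the offsets 71 were higher and none lower, with a median of 0.61. In that fit 7643 genes were called over the table, and their split by direction is not reported here. In 68 members the call of higher held with both kinds of offset.

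Within the family, members with a short coding sequence rose most. Across 81 members with an annotated coding length, the Spearman correlation of log2 fold change with coding length was -0.77, in the large subunit -0.81 (n = 49) and in the small subunit -0.67 (n = 32). These points share libraries and are no independent replicates. The correlation was -0.56 with transcript length, -0.51 with the number of exons, -0.21 with 3′ UTR length, 0.07 with GC content and -0.12 with average level. With the offsets, the correlation with coding length was -0.17, and with the shortest transcript -0.06.

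The other tested genes also rose more where their coding sequence was short, with a Spearman correlation of -0.65 over 12556 genes. Up to 300 coding bases, the 11 members had a median log2 fold change of 2.59 and the 252 other genes 1.62. From 301 to 450 bases the medians were 2.29 for 28 members and 1.38 for 579 other genes. From 451 to 600 bases they were 2.06 for 19 members and 0.99 for 777 others, and from 601 to 900 bases 1.90 for 20 members and 0.69 for 1750 others. In the 3 members from 901 to 1300 bases the median was 1.46, beside 0.31 in 2470 other genes. In every class the members' median was the higher one, and both medians were lower in each longer class. With the offsets, the medians by class ran from 0.40 to 0.73 in members and from 0.08 to 0.29 in the other genes.

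**Figure D2:**
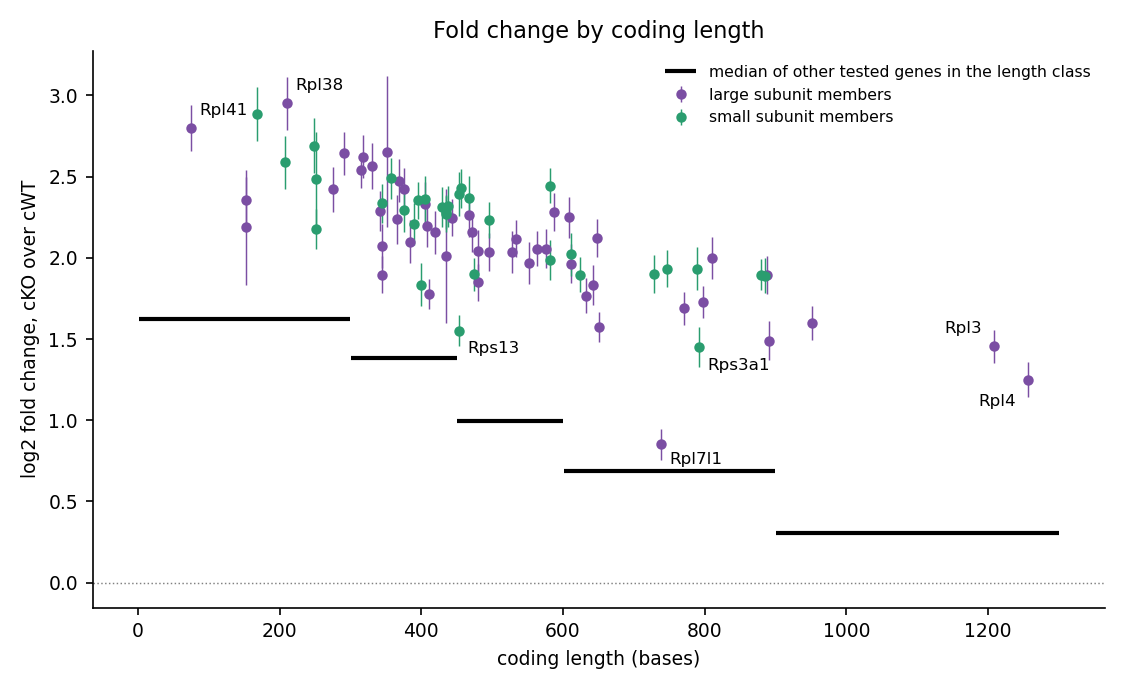
Log2 fold change of cKO over cWT against coding length in bases for 81 members, with points for genes, error bars for standard errors and black lines for the median of the other tested genes in each of 5 length classes. Points fall from left to right, from Rpl41 with 75 coding bases to Rpl4 with 1257, and each lies above the black line of its length class.

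The steepest rises were in very small proteins. Rpl38, a large subunit protein known from mouse mutants with skeletal patterning defects (chr11:114668524-114672331, 210 coding bases), had 89.3, 74.3 and 62.6 CPM in cWT and 718, 583 and 452 CPM in cKO. The lowest cKO library was 5.06 times the highest cWT library, and the log2 fold change was 2.95 ± 0.16 (SE, edgeR adjusted p = 1.87e-10). Rps29, a small zinc-binding protein mutated in a form of Diamond-Blackfan anaemia, had 185, 156 and 142 CPM in cWT and 1499, 1204 and 876 CPM in cKO. On the log2 scale this was a change of 2.89 ± 0.17 (SE, edgeR adjusted p = 2.21e-10). Rpl41, the shortest ribosomal protein with 75 coding bases, had 186, 165 and 151 CPM in cWT and 1384, 1189 and 926 CPM in cKO. The rise on the log2 scale was 2.80 ± 0.14 (SE, edgeR adjusted p = 1.2e-11). In all 3 genes the order of the cKO libraries was the same, with replicate 1 highest and replicate 3 lowest. Rps21, of the small subunit, followed with 2.69 ± 0.17 (SE). With the length and GC offsets these 4 genes remained called, at 1.28 for Rpl38, 0.93 for Rps29, 1.09 for Rpl41 and 0.73 for Rps21.

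The smallest rises among core proteins were in long ones. Rpl4, one of the longest proteins of the large subunit, which lines the peptide exit tunnel (chr9:64173375-64178666, 1257 coding bases), had 715, 590 and 615 CPM in cWT and 1604, 1493 and 1470 CPM in cKO. Its log2 fold change was 1.25 ± 0.11 (SE, edgeR adjusted p = 7.8e-09), and the genotypes did not overlap. Rps3a1, the mouse gene of the small subunit protein eS1, had 718, 595 and 565 CPM in cWT and 1959, 1564 and 1610 CPM in cKO, a log2 fold change of 1.45 ± 0.12 (SE). Rpl3, which reaches into the peptidyl transferase centre, had 517, 450 and 475 CPM in cWT and 1350, 1343 and 1264 CPM in cKO, a log2 fold change of 1.46 ± 0.10 (SE). With the offsets Rpl4 was called at 0.26 and Rpl3 at 0.40, and Rps3a1 stood at -0.11 (edgeR adjusted p = 0.245). Rps13, at 1.55 ± 0.09 (SE) without the offsets, was also among the smaller rises but is not a long member. Its 453 coding bases lay near the members' median of 454.5. Rps13 was the single member called lower with the offsets, at -0.28 (edgeR adjusted p = 0.00299). With the shortest transcript in the offsets it was -0.12 and not called.

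The acidic stalk of the large subunit recruits elongation factors. Rplp0, its base, had 643, 542 and 567 CPM in cWT and 1838, 1689 and 1782 CPM in cKO, which gave 1.60 ± 0.11 on the log2 scale (SE, edgeR adjusted p = 2.98e-10). Rplp1, one of the paired arms, had 664, 534 and 520 CPM in cWT and 3060, 2686 and 2640 CPM in cKO, which gave 2.29 ± 0.12 on the log2 scale (SE, edgeR adjusted p = 2.35e-11). Rplp2, the partner of Rplp1, had 145, 152 and 157 CPM in cWT and 570, 472 and 648 CPM in cKO, which gave 1.89 ± 0.11 on the log2 scale (SE, edgeR adjusted p = 8.63e-11). Each of the 3 genes was clearly higher in all cKO libraries. In Rplp2, unlike in Rplp1, cKO replicate 3 was the highest library.

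Members known for roles outside or at the edge of the ribosome, or from disease, rose as well. Rps6, the small subunit protein phosphorylated by S6 kinases, had 553, 439 and 465 CPM in cWT and 1998, 1846 and 1721 CPM in cKO, a log2 fold change of 1.93 ± 0.12 (SE). Rpl5 and Rpl11, which with 5S RNA bind and inhibit Mdm2 and so stabilise p53, had log2 fold changes of 1.49 ± 0.12 and 2.12 ± 0.12 (SE). Rpl23, another Mdm2 binder, had 2.16 ± 0.13 (SE). Rps3, which also acts in DNA repair, went from 660 ± 80.0 to 2463 ± 232 CPM (SD, n = 3). Rpl13a, part of an interferon-triggered translational silencing complex, went from 818 ± 107 to 3886 ± 367 CPM (SD, n = 3). Rps19, the gene most often mutated in Diamond-Blackfan anaemia, had 121, 103 and 112 CPM in cWT and 603, 534 and 484 CPM in cKO, with a log2 fold change of 2.27 ± 0.11 (SE). Rpsa, also known as a laminin receptor, had 1.89 ± 0.11 (SE), and Rps27a, made as a fusion with ubiquitin, 2.37 ± 0.13 (SE). With the offsets all of these remained called higher.

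The order of levels within the family was similar in both genotypes. Levels were compared per length, as CPM per kilobase of the same shortest transcript as in the offsets. Over the 77 core members the median was 381 CPM per kb in cWT and 1622 in cKO, and the Spearman correlation between genotypes was 0.89, over genes that share libraries. Rplp1 was highest with 1148 ± 158 CPM per kb in cWT and 5602 ± 461 in cKO (SD, n = 3). Rpl10, a late-joining protein at the core of the large subunit, had 1060 ± 147 and 3775 ± 368. Rpl23a, near the exit of the tunnel, had 926 ± 113 and 4449 ± 736. Rps14 (901 ± 120 and 4725 ± 752) and Rps12 (890 ± 91.7 and 4546 ± 330), both of the small subunit, completed the 5 highest. In cWT these 5 did not differ beyond their spread from their neighbours in that order. Rpl10 was not called with the offsets (0.14, edgeR adjusted p = 0.113) but was with the shortest transcript (0.35).

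**Figure D3:**
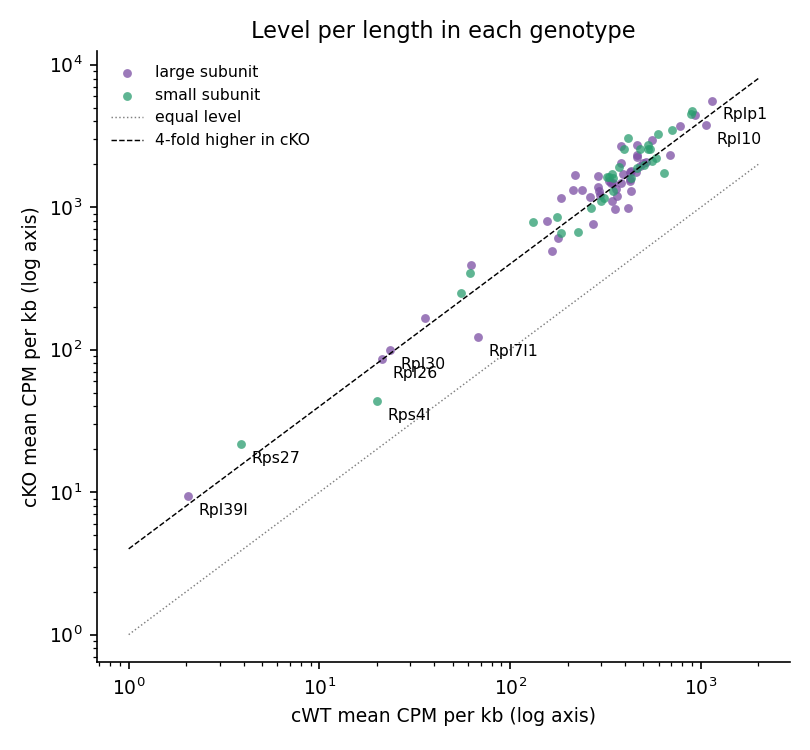
Mean CPM per kilobase in cKO against cWT (both log axes) for the 82 tested members, coloured by subunit; the dotted line marks equal levels and the dashed line a level 4-fold higher in cKO. Most points lie near the dashed line, Rplp1 is at the top, and Rpl7l1 and Rps4l lie nearest to the dotted line.

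To compare members with each other, each was tested against the summed counts of the family in place of the library. In this fit 18 of 82 members were higher and 12 lower, and 52 were not called. Over all 13490 tested genes 0.986% were higher and 91.3% lower, a background set by the rise of the family itself. Of these calls, 9 of the 18 and 9 of the 12 held in every fit that left out 1 library and in the other alternatives tried. The higher members had coding lengths from 75 to 582 bases (median 324), and the lower ones from 453 to 1257 (median 792).

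Rpl38 went from 0.304% ± 0.0292 to 0.554% ± 0.0670 of the ribosomal protein counts (SD, n = 3), a change of 0.86 ± 0.15 on the log2 scale (SE, edgeR adjusted p = 0.000113). Rpl4 went from 2.59% ± 0.0601 to 1.46% ± 0.0989, a log2 value of -0.83 ± 0.13 (SE, edgeR adjusted p = 5.43e-05). On the log2 scale the largest loss of share was in Rpl7l1, from 0.361% ± 0.0239 to 0.154% ± 0.0175, with -1.23 ± 0.14 (SE, edgeR adjusted p = 2.83e-06). Also beyond 0.5 in size were Rps29 (0.79), Rpl41 (0.71), Rps21 (0.60), Rpl34 (0.55), Rpl37 (0.55) and Rpl36a (0.53) on the higher side. On the lower side these were Rps4l (-0.93), Rps3a1 (-0.63), Rpl3 (-0.62), Rpl5 (-0.59), Rps13 (-0.52) and Rpl14 (-0.51). Of these named members, Rpl34 alone lost its call in a fit that left out 1 library. The counts of Rpl34 are also split with a near-identical copy, and it held 10.4% of the pair in cWT and 18.9% in cKO. The fit against the family was not run with copies summed, so the gain of Rpl34 is uncertain. The small subunit held 39.9%, 40.0% and 39.9% of the family's counts in cWT and 41.9%, 41.8% and 41.6% in cKO, so the groups did not overlap in this share.

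**Figure D4:**
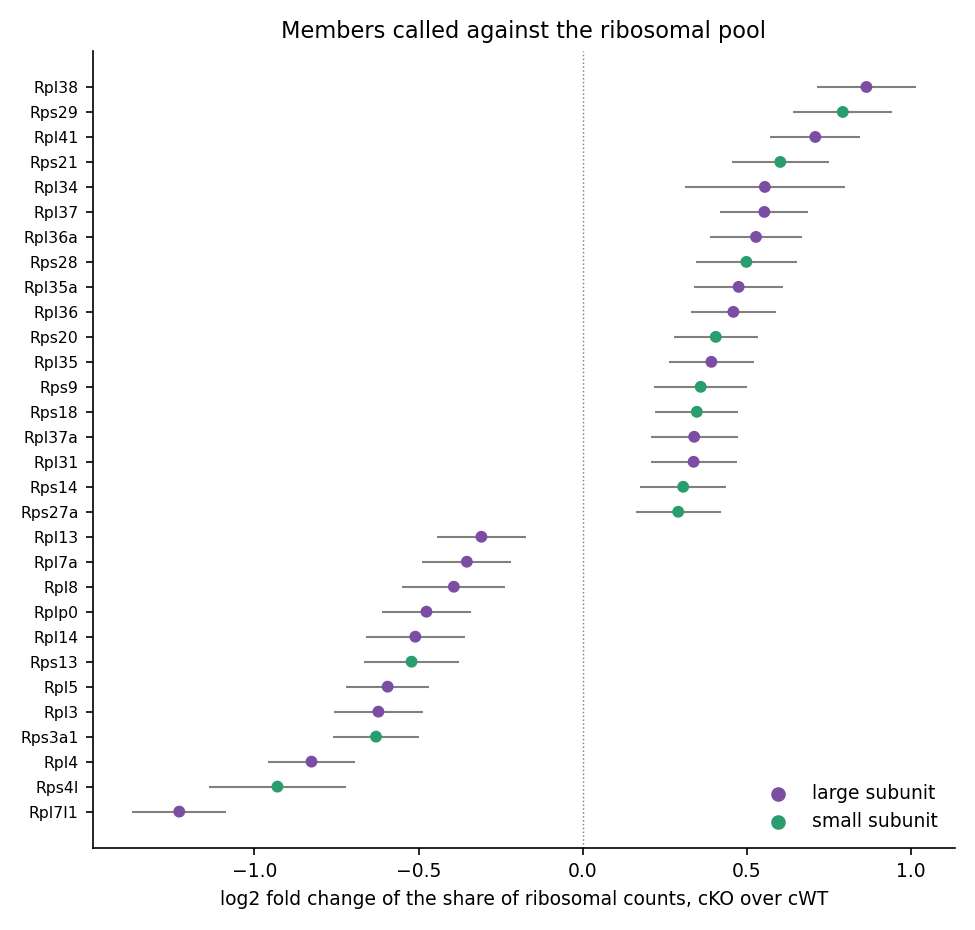
Log2 fold change of each member's share of ribosomal protein counts, cKO over cWT, for the 30 members called against the family, with standard errors and colours for the subunit. Rpl38 is at the top with 0.86 and Rpl7l1 at the bottom with -1.23.

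Paralogs of core proteins were set beside their counterparts. Rpl22l1, which can replace Rpl22 in the ribosome and is known to be repressed by it, had 22.3, 20.7 and 15.98 CPM in cWT and 110, 96.5 and 72.2 CPM in cKO. Its log2 fold change was 2.24 ± 0.15 (SE), beside 2.10 ± 0.13 for Rpl22. Its CPM was 11.9% ± 0.975 of that of Rpl22 in cWT and 13.1% ± 0.528 in cKO (SD, n = 3). Rpl39l, known from the testis, had a log2 fold change of 2.19 ± 0.35 (SE), beside 2.35 ± 0.14 for Rpl39, and reached only 1.12 ± 0.228 CPM in cWT and 5.18 ± 2.06 CPM in cKO (SD, n = 3). Rps27l, a p53 target, had 2.18 ± 0.12 (SE), beside 2.62 ± 0.13 for Rps27 summed with its retrocopy. With the offsets none of these 3 paralogs was called, at 0.04, 0.29 and 0.07. With the shortest transcript Rps27l was, at 0.22.

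Rpl7l1, a nucleolar relative of Rpl7 that acts in ribosome assembly, had 92.6, 85.3 and 88.1 CPM in cWT and 172, 145 and 164 CPM in cKO. Its log2 fold change was 0.85 ± 0.10 (SE), beside 2.0 ± 0.13 for Rpl7, and its CPM was 14.9% ± 1.23 of that of Rpl7 in cWT and 6.76% ± 1.11 in cKO (SD, n = 3). The offset value turned with the transcript chosen, from 0.69 to -0.14 with the shortest one. Rps4l, annotated as a transcribed processed pseudogene, had 19.6, 18.7 and 18.3 CPM in cWT and 36.8, 34.9 and 52.2 CPM in cKO. The log2 fold change was 1.13 ± 0.14 (SE), beside 1.93 ± 0.13 for Rps4x, the X-linked core gene. With the offsets Rps4l was not called, at -0.10 and, with the shortest transcript, 0.04. The third cKO library stood above the other two.

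Many members share sequence with other genes, which limits how reads can be assigned. In 29 members every stretch of 50 coding bases also occurred in another annotated gene. In 4 members a copy in the table held more counts than the member itself, a set chosen after the values were seen. The stretches below, from the coding sequence of the member (GENCODE M21, GRCm38) and the matching stretch of its copy, show how little tells them apart, with capitals where they differ. Rps27 (chr3:90212522-90213651) and Rps27rt (chr9:114982366-114982739) were the same over all 252 coding bases. Rpl34 differed from Rpl34-ps1 (chr6:71124610-71124963) at 2 of 351 bases, Rpl30 from Gm12191 (chr11:49678710-49679057) at 1 of 345, and Rpl26 from Gm15772 (chr5:3236431-3236868) at 2 of 435.
Rps27: atgcctctcgcaaaggatctccttcatccc
Rps27rt: atgcctctcgcaaaggatctccttcatccc
Rpl34: gaaagcacctaaatcTgcatgtggcgtgtg
Rpl34-ps1: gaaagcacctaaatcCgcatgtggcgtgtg
Rpl30: cgtgctgggctacaaGcagactctgaagat
Gm12191: cgtgctgggctacaaAcagactctgaagat
Rpl26: agttcaggttgttcgCggacactacaaagg
Gm15772: agttcaggttgttcgTggacactacaaagg

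Rps27 had 34.9, 22.4 and 20.1 counts in cWT and 84.8, 98.2 and 73.3 in cKO. Its copy Rps27rt, with the same coding sequence, had 3904, 3662 and 3335 counts in cWT and 14108, 12983 and 12482 in cKO. Rps27 thus held under 1 count in 100 of the pair, 0.704% in cWT and 0.643% in cKO. Summed with its copy, Rps27 had 2.62 ± 0.13 on the log2 scale (SE, edgeR adjusted p = 1.48e-11), beside 2.48 ± 0.29 alone. Rpl34 held 10.4% of the pair in cWT and 18.9% in cKO, and its log2 fold change went from 2.65 ± 0.47 alone to 1.76 ± 0.12 (SE) summed. Summed, it was not among the largest rises. Rpl30 went from 2.07 alone to 2.5 summed and Rpl26 from 2.01 to 2.31. With copies summed, all 82 members were called higher and the median was 2.17. The values of these 4 members without their copies are uncertain, and those of other members that share sequence may be too.

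Hosts of small nucleolar RNAs made up 30 of the 83 members (36.1%, with 58 such RNAs in all), against 1.73% of tested genes. Rpl4 carried 5 of them, the most of any member. The 30 hosts had a median log2 fold change of 1.93 and the other 52 tested members 2.24. Hosts were also longer, with a median of 512 against 429 coding bases. Members with and without a TOP-like annotated start had medians of 2.23 (n = 13) and 2.16 (n = 48). Other tested genes with such a start had a median of 0.00 (n = 297), and without it -0.03 (n = 9908).

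Other parts of the translation machinery were read from lists chosen with earlier results of these data known. The counts called in these lists stand beside 35.6% of all tested genes called higher and 36.5% lower. With the offsets these shares were 28.8% and 28.2%. With library size alone 10073 of 13490 genes were called, and 33.1% of those called were higher. Of the ribosomal components outside the naming rule, 3 are given here. Fau, a ubiquitin-like fusion with eS30, had a log2 fold change of 2.28 ± 0.12 (SE), Gnb2l1, the scaffold also called Rack1, 1.88 ± 0.11, and Rpl36al 2.08 ± 0.12, and each passed the test. All 6 elongation factors were higher, with a median of 1.23. Eef1b2, the exchange factor of eEF1A, had the largest of these (1.90 ± 0.10) and Eef2, which moves the ribosome along the message, the smallest (0.47 ± 0.11). With library size alone 5 of the 6 were called higher, and 5 with the offsets. With the offsets Eef2 stood at 0.80 and was called, and Eif5a was lowest, at 0.15 and not called.

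Among 18 other TOP messages, which include 5 of the elongation factors, 15 were higher and 2 lower, with a median of 1.23. With library size alone 10 were higher and 3 lower (median 0.83), and with the offsets 11 were higher and 3 lower (median 0.38). Tpt1, the growth-related protein TCTP, went from 1153 ± 102 to 4876 ± 505 CPM (SD, n = 3), and Eif3h, an initiation factor subunit, had a log2 fold change of 1.51 ± 0.09 (SE). The 2 that fell with TMM scaling were Pabpc1, the poly(A)-binding protein (-0.80 ± 0.09, SE), and Gas5, a non-coding snoRNA host (-0.99 ± 0.12, SE). Both were also lower with the offsets, at -0.89 and -2.77.

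Factors that build ribosomes were mixed. Of 46 assembly factors 29 were higher and 6 lower, with a median of 0.65, with library size alone 22 were higher and 12 lower (median 0.26), and with the offsets 24 were higher and 3 lower (median 0.25). Imp3, of the U3 processome (2.16 ± 0.11, SE), and Eif6, which keeps the subunits apart (1.68 ± 0.10), rose. Mdn1, the giant ATPase that strips factors from the pre-60S particle, fell from 43.5 ± 1.33 to 6.34 ± 0.343 CPM (SD, n = 3). Its log2 fold change was -2.78 ± 0.13 (SE), and -0.79 with the offsets. Tcof1, a nucleolar protein, was also lower (-1.47 ± 0.14, SE). Heatr1, of the processome, was lower without the offsets (-0.79) and higher with them (0.37). Of 15 genes for RNA polymerase I and its factors 8 were higher and 5 lower, with a median of 0.39. With library size alone 6 were higher and 7 lower. Polr1a, its largest subunit, turned from -1.19 to 0.37 with the offsets, while Polr1c, a small subunit shared with polymerase III, was 1.84 ± 0.11 (SE) and 0.81. Of 5 chaperones of single ribosomal proteins 4 were higher, among them Pdcd2l (1.81 ± 0.11, SE) and Pdcd2 (1.74 ± 0.12), known for uS5. Bccip, known for uL14, was 1.02 and turned to -0.35 with the offsets.

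Genes listed as regulators of TOP translation went the other way in number. The list was a broad one. Max was among its higher genes (0.49), and Myc (-0.66) and the kinases Rps6ka1 (-0.75), Rps6ka2 (-1.01) and Rps6ka3 (-1.27) were among its lower ones. Of 17 listed, 3 were higher and 10 lower, with a median of -0.66, and with the offsets 7 were higher and 5 lower, with a median of 0.03. Larp1, which binds TOP tracts, fell from 115 ± 5.93 to 27.1 ± 1.85 CPM (SD, n = 3), or -2.09 ± 0.10 on the log2 scale (SE, edgeR adjusted p = 1.01e-11), and was lower with the offsets too (-0.77). Eif4ebp1, an inhibitor of cap-dependent initiation, had 1.71 ± 0.11 (SE), and Cnbp, a nucleic acid-binding protein that acts on TOP messages, 1.44 ± 0.10. Of 8 genes for ribosome rescue and quality control 1 was higher and 6 lower, with a median of -0.63 (-0.12 with the offsets). Gcn1l1, a sensor of collided ribosomes, had -1.70 ± 0.09 (SE) but 0.06 with the offsets. Pelo, which splits stalled ribosomes, was the one that was higher (0.65 ± 0.17, SE), but it was not called with the offsets (0.04) or with library size alone (0.26).

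**Figure D5:**
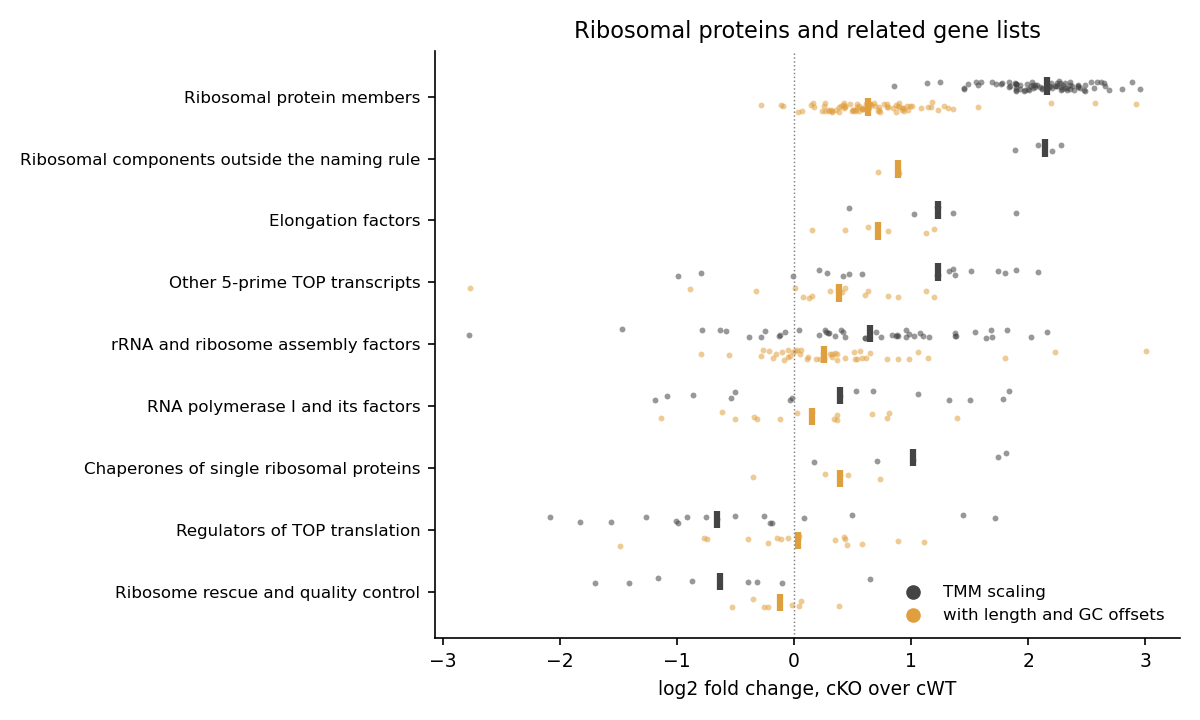
Log2 fold change of cKO over cWT for the 82 tested members and for 8 related gene lists, 1 point per gene and a bar at each median, with TMM scaling in grey and with length and GC offsets in orange. The members' median moves from 2.16 to 0.63, and that of the regulators of TOP translation from -0.66 to 0.03.

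Some markers of other cells differed between the genotypes as well. The counts below stand beside 35.6% of all tested genes called higher and 36.5% lower. With the offsets these shares were 28.8% and 28.2%. The summed level of 13 microglial markers ran from 40320 to 42865 CPM in cWT and from 46209 to 53658 CPM in cKO, with 6 higher and 5 lower, and with 3 higher and 7 lower with the offsets. The 3 choroid plexus markers, led by Ttr, ran from 2134 to 2403 CPM in cWT and from 10361 to 14012 CPM in cKO. These 3 were called higher without and with the offsets, with median log2 fold changes of 1.90 and 1.07. Kl among them was near the threshold without the offsets (0.38, edgeR adjusted p = 0.0496), and its libraries overlapped between genotypes. With library size alone 2 of the 3 were called higher. The 3 neutrophil markers in the table ran from 2441 to 3037 and from 9153 to 13808 CPM. All 3 neutrophil markers were called higher, but with the offsets 1 was, Retnlg at 0.24, while S100a8 stood at -0.08 and S100a9 at -0.09. Endothelial markers ran from 1007 to 1212 CPM in cWT and from 1509 to 1795 CPM in cKO, with 2 of 5 higher and 2 lower. With the offsets 1 endothelial marker was higher and 1 lower. The 6 oligodendrocyte markers ran from 273 to 283 and from 291 to 429 CPM, with 4 higher and 1 lower. The 6 astrocyte markers ran from 386 to 399 and from 401 to 634 CPM, with 2 higher. With the offsets 4 oligodendrocyte markers were higher and 1 lower, and 4 astrocyte markers were higher. With library size alone, microglial markers had 5 higher and 5 lower, neutrophil markers 3 higher, and endothelial markers 1 higher and 3 lower. Oligodendrocyte markers then had 1 higher and 1 lower, and astrocyte markers 2 higher and 1 lower. Sums overlapped for the 5 erythroid markers, at 113 to 163 and 102 to 212 CPM with 1 lower, and 4 lower with the offsets. The 1 lower was Hbb-bs, at 23.9, 23.4 and 6.22 CPM in cWT and 0 in every cKO library (edgeR adjusted p = 0.034). Hbb-bt was not called, at 16.3, 16.6 and 10.6 CPM in cWT and 19.3, 27.5 and 8.88 CPM in cKO. The cause of this difference was not tested. Sums also overlapped for the 4 markers of border-associated macrophages, at 560 to 714 and 472 to 589 CPM. Of these, 2 were higher and 1 lower, and 2 and 1 with the offsets. The 8 neuron markers summed to at most 11.5 CPM and the 4 lymphocyte markers to at most 3.41 CPM in any library, and no listed marker was at 0 in all libraries. The part of these cells in the ribosomal protein result was not tested.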

How the data were processed

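The authors deposited 1 table of estimated counts per gene and library and 1 table of their own comparison. That deposited table gives, per the file headers, a base mean (a signal averaged after scaling), a log2 fold change, a Wald statistic (a score) and p-values. The submitters' processing notes list STAR 2.7.9a, RSEM, DESeq2, GRCm38 and mm10. The authors' annotation, strand setting and treatment of reads with several matches were not given in the sources used here. Estimated counts were rounded and tested with edgeR 4.0.16 in R 4.3.3 (two-sided quasi-likelihood test, TMM scaling, robust dispersion, filterByExpr with a minimum count of 10, genotype as the only term), with Benjamini-Hochberg adjustment over 13490 genes and a threshold of 0.05. Groups came from the sample titles. Standard errors were derived from the test statistic.

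Offsets were smooth functions of log transcript length and GC content, fitted in each library with mgcv 1.9.3 and GENCODE M21 annotation (12983 tested genes). For the comparison within the family, library sizes were the summed member counts. Shares and correlations carry no test. The scripts were tested on simulated data. The alternatives were DESeq2 1.42.0, limma-voom (limma 3.58.1), other scalings, filters, member sets and a replicate block, and leaving out each library. The members and lists were chosen with earlier results of these data known.

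Named members were Rplp0, Rplp1, Rplp2 and Rpsa, the 5 highest per kilobase, the 5 largest and smallest fold changes at an average log2 CPM of at least 2, paralogs with counterparts, members not tested, members with known further roles, members beyond 0.5 against the family, and from each other list the 3 smallest p and any called against the list's direction. Some genes the rule takes from the other lists are given by count only, and some results are not reported here. Genes and sequences named outside the rule (Rpl15, Rpl35, Rps10, Rps18, Rpl28, Rpl30, Rpl26, Rps15a, Rptor, Taf1d, Hnrnpa1, Nop58, the copies, Eef2, Eif5a, Hbb-bt, Myc, Rps6ka1, Rps6ka2, Rps6ka3) were chosen after their values were seen. Every pair of replicates differed beyond counting noise (chi-square per degree of freedom 3.85 to 19.4).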

Additional observations from a re-analysis of the deposited data

How the results depend on the processing

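The count of members called higher stayed between 71 and 83 under every alternative, and was 82 in each fit that left out 1 library. The median log2 fold change was 1.76 with library size alone, 0.63 with the length and GC offsets and 0.61 with the shortest transcript in the offsets. It ran from 2.03 to 2.26 when 1 library was left out, and elsewhere moved by less than the spread between libraries. The number of genes called over the table was 7399 with the offsets and ran from 9116 to 9717 when 1 library was left out. The cKO share of counts ran from 8.66% to 9.59% without 1 library. Members called against the family ran from 19 to 32 when 1 library was left out, with 19 without cWT replicate 2, and the count was 30 with all libraries.

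Same-numbered libraries had correlations of their deviations of 0.15, 0.04 and 0.12, so the numbers were not taken to pair them. With a replicate block, 82 members were called higher with a median of 2.15, 9911 genes were called in all and 55 members were called against the family. Replicate 2 of the 2 genotypes correlated less with each other than cWT replicate 2 did with cKO replicate 3 (0.05).

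Among members and listed genes, calls that turned with the offsets were Rptor (0.43), Taf1d (-0.51), Hnrnpa1 (-0.33), Nop58 (-0.28), Rps13 (-0.28), Bccip (-0.35), Aif1 (-0.21), Heatr1 (0.37, and 0.38 with the shortest transcript), Polr1a (0.37 and 0.39) and Pf4 (-0.65 and -0.48). The cause was not tested. Offsets rest on annotated transcripts: Rps15a, annotated with 5179 bases, went from 2.92 with its principal to 0.43 with its shortest transcript. Depth limited Rpl3l and Rpl39l most, both near or under the filter on low counts.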
